A study of Mus musculus and Homo sapiens with 22 samples.

Results

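N2A is a mouse neuroblastoma cell line. The libraries described here come from N2A cells depleted of U2af65, the protein made from the gene U2af2, and from control N2A cells. The rule compared the 1 siU2af65 library with the 2 siCtrl libraries, so 3 of the 22 samples of the series were used. Of 22667 mouse gene identifiers, 11271 reached a mean of 1 RPKM (reads scaled by gene length and library size) over these 3 libraries and were tested. The siU2af65 cells received an ON-TARGETplus pool of small interfering RNAs against U2af65 through the lipid reagent RNAiMax, and the siCtrl cells (libraries a and b) a pool with no target. All were harvested at 48 hours and carried no other agent or transgene named in the labels. Libraries were made from polyadenylated RNA. A siPtbp1 library (the same treatment, with a pool against the splicing repressor Ptbp1) and a pooled shGFP file (2 runs of cells that carry a lentiviral hairpin against GFP under puromycin selection) served only as outside references. The series was set up around alternative splicing. The values below are reads per gene and say nothing about which exons were kept.

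U2AF is a heterodimer that marks the end of an intron. Its large subunit, U2af65, binds the stretch of pyrimidines before the 3′ splice site, its small subunit binds the terminal AG, and together they help the U2 snRNP settle on the branch point. RNA whose introns are kept can be held in the nucleus or destroyed by nonsense-mediated decay. Reads per gene therefore register some splicing changes as changes in level, but cannot name the step that moved.

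The libraries held 63952996 (siCtrl a), 77138004 (siCtrl b) and 68416863 (siU2af65) reads in genes, and 15862 to 16589 genes had at least 1 read. Levels are given as CPM, read counts scaled by library size and a TMM factor, in the order siCtrl a, siCtrl b, siU2af65, unless stated otherwise. Of 20 markers of the N2A neuronal line, 16 were at 1 RPKM or more in all 3 libraries, and their summed level was 1710, 1610 and 1580 RPKM. Markers of other cell types were low. Under 1 RPKM in all 3 libraries were 12 of 15 astrocyte and oligodendrocyte markers, 11 of 16 immune markers, 10 of 14 fibroblast and muscle markers and 12 of 14 endothelial and epithelial markers. With 0 reads in all 3 libraries were 5, 1, 0 and 1 of them. Their summed levels were 12.3, 14.7 and 13.4 RPKM for the glial list, 38.7, 74.6 and 49.6 for the immune list, 15.6, 16.5 and 9.46 for the fibroblast list, and 6.44, 7.45 and 11.5 for the endothelial list. In bulk RNA, fewer cells of a type and less RNA per cell cannot be told apart.

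U2af2 itself stood at 259.8, 222.1 and 37.7 CPM (15511, 17406 and 2699 reads). The knockdown library lay far below both controls, whose mean was 241 ± 26.6 CPM (SD, n = 2). In edgeR's quasi-likelihood test the log2 fold change was -2.68 (SE 0.26, adjusted p = 0.0056), a 6.39-fold lower level. In the siPtbp1 library U2af2 was at 240.7 CPM, within the control range.

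Across the 11271 genes, 213 rose and 367 fell, where a call needed an adjusted p under 0.05 in edgeR and the same sign against each control. That is a background of 5.15% of genes called, with 1.89% rising and 3.26% falling. All 580 genes under that p already had the same sign against each control. With no test, 40.5% of genes lay above both controls and 39.5% below both. The test has 1 residual degree of freedom, which the siCtrl pair supplies, and the single knockdown library is taken to have the same spread. Whether that pair are separate cultures is not given in the labels. The p-values thus reflect the spread between the libraries at hand, and that spread may be technical. The share of calls that rose was 36.7% with TMM scaling and 52.7% when library totals were used (626 rose, 562 fell). The median log2 fold change of all genes was -0.00 with TMM and 0.10 with library totals.

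The median size of a change was 1.40 on the log2 scale among genes that rose and 1.31 among genes that fell, beside 0.35 over all genes tested. Of the 213 genes that rose, 51 changed 4-fold or more and 114 had a mean of 10 RPKM or more. Of the 367 that fell, 41 changed 4-fold or more and 280 had a mean of 10 RPKM or more. The filter takes the mean over all 3 libraries, so a gene under 1 RPKM in the controls could pass only when it was high in siU2af65. Such genes could rise but not fall, and 35 of the genes that rose were of this kind. Rates at low levels are therefore not compared. The counts at 10 RPKM or more use the same mean, which siU2af65 raises for genes that rose and lowers for genes that fell. Between 30 and 100 RPKM, 1.46% of genes rose and 4.7% fell. Among the genes nearest the threshold were Crabp2 (1.15, 1.29 and 0.56 RPKM) just inside it, and Bhmt2 (0.98, 0.93 and 1.08 RPKM) and Amigo1 (0.51, 1.17 and 1.31 RPKM) just outside.

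**Figure D1:**
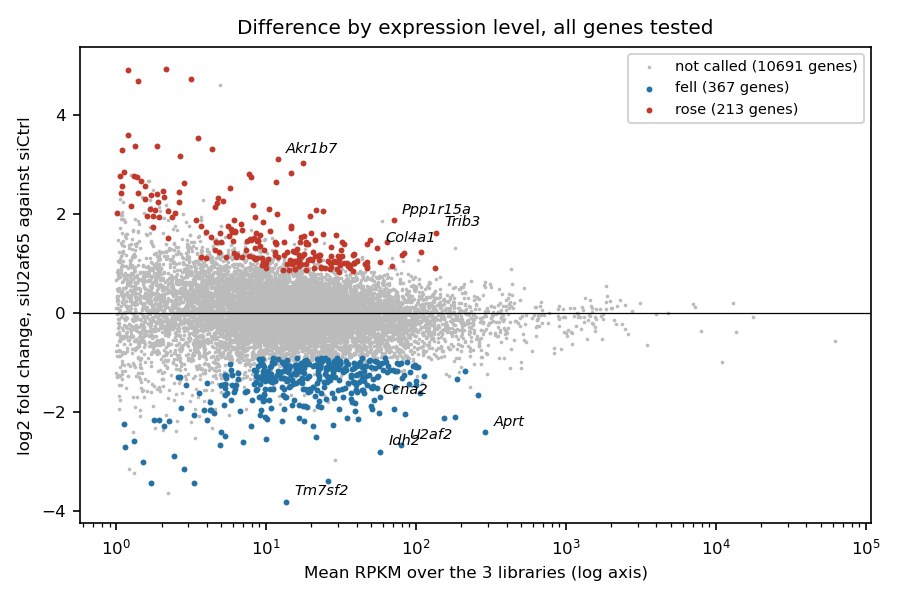
Log2 fold change of siU2af65 against siCtrl (vertical axis) against the mean RPKM over the 3 libraries (log axis) for all 11271 genes tested. Each point is 1 gene. The 213 red genes rose and the 367 blue genes fell, and U2af2 lies at -2.68. At the left edge the filter on the mean admits low genes that rose and leaves out low genes that fell.

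The control pair was not equally far from the knockdown library. Among the genes that rose, siCtrl b was above siCtrl a in 161 of 213 (75.6%), beside 54.7% of all genes tested. Among the genes that fell, siCtrl b was below siCtrl a in 211 of 367 (57.5%), beside 45.3% of all genes. The part of this difference between controls in the calls was not tested. The controls differed from each other by 2-fold or more at 408 genes, among them 11 that rose and 6 that fell.

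**Figure D2:**
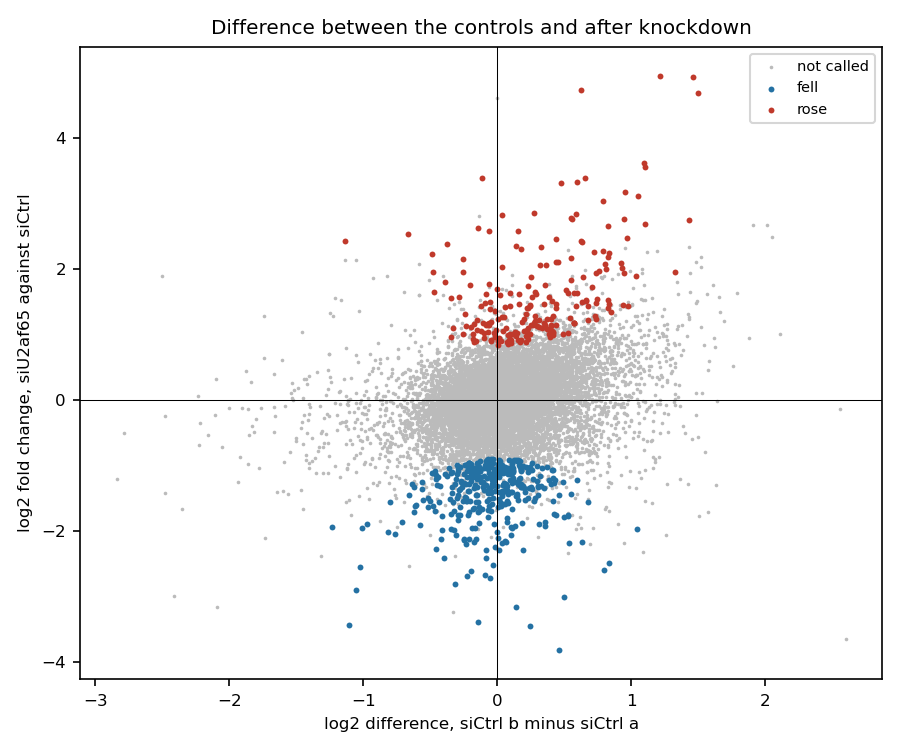
Log2 fold change of siU2af65 against siCtrl (vertical axis) against the log2 difference between the control libraries, siCtrl b minus siCtrl a (horizontal axis), for all genes tested. Red genes rose, blue genes fell and grey genes were not called. Most red points, 161 of 213, lie to the right of 0.

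Among genes with a mean of 10 RPKM or more over the 3 libraries, the 12 largest rises were led by Akr1b7, Cox6a2 and Car6. Each of these reached that mean only through siU2af65. Their control levels were 1.96 and 4.46 RPKM for Akr1b7, 3.41 and 6.44 for Cox6a2, and 3.48 and 5.71 for Car6. Akr1b7, an aldo-keto reductase, went from 2.09 and 4.38 CPM to 28 CPM. Cox6a2, the form of a cytochrome oxidase subunit typical of muscle, went from 2.16 and 3.75 to 24.4 CPM. Car6, a secreted carbonic anhydrase, went from 5.66 and 8.54 to 50.6 CPM. Each of these lay more than 4-fold above both controls, with log2 fold changes of 3.11, 3.04 and 2.83.

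Less familiar members followed. Acot2, a mitochondrial thioesterase that frees fatty acids from coenzyme A, stood at 3.45, 6.14 and 30.1 CPM (log2 fold change 2.65). Trmu, which modifies mitochondrial tRNAs, stood at 6.01, 8.18 and 30.5 CPM (log2 fold change 2.10), and Mogs, the glucosidase that begins the trimming of N-glycans, at 19.9, 34.9 and 116 CPM (log2 fold change 2.08). The knockdown value lay above both controls for all 12, which the call rule requires. Acot2, Trmu, Mogs, Igfbp6, Ppp1r10, Dgat2 and Cmtm3 also averaged under 10 RPKM over the controls, so they too passed only through siU2af65. Angptl6 (9.2 and 12.91 RPKM in the controls) and Ppp1r15a (31.12 and 40.29 RPKM) reached that mean in the controls alone. The secreted factors Angptl6 (12.8, 16.5 and 60.9 CPM) and Igfbp6 (4.44, 7.80 and 24.6 CPM) rose by 2.06 and 2.00. Dgat2, which makes triglycerides (15.5, 19.8 and 59.7 CPM), and Cmtm3 (9.61, 15.7 and 41.7 CPM) rose by 1.76 and 1.72. Ppp1r10, a nuclear regulator of protein phosphatase PP1, stood at 23.1, 57.8 and 157 CPM and rose by 1.96. Its controls differed by more than 2-fold, and its call was lost with a robust edgeR fit (adjusted p = 0.178).

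Among genes with a mean of 10 RPKM or more, the 12 largest falls included U2af2 and several enzymes. Tm7sf2, a sterol reductase of cholesterol synthesis, fell from 23.7 and 32.6 CPM to 2.00 CPM. Idh2, the mitochondrial isocitrate dehydrogenase that uses NADP, stood at 154, 124 and 19.9 CPM. Aprt, which salvages adenine, stood at 378, 286 and 62.5 CPM. The log2 fold changes were -3.82, -2.81 and -2.41, and edgeR's adjusted p lay between 0.0056 and 0.00877.

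Asl, the argininosuccinate lyase of the urea cycle, fell from 79.8 and 58.1 to 14.3 CPM. Taz, which here is the gene for the cardiolipin remodelling enzyme tafazzin (identifier ENSMUSG00000009995), stood at 21.5, 22 and 4.8 CPM. Both fell by 4-fold or more, and the knockdown value lay far below the lower control. Ap3m1, an adaptor subunit of vesicle sorting, stood at 136, 129 and 27.1 CPM, and Heca at 96.0, 81.6 and 19.5 CPM. The regulatory myosin light chain Myl12b (31.4, 28.4 and 2.85 CPM), the DNA glycosylase Neil3 (66.9, 65.5 and 11.6 CPM) and the linker histone Hist1h1c (24.5, 12.1 and 3.11 CPM) were also among them.

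**Figure D3:**
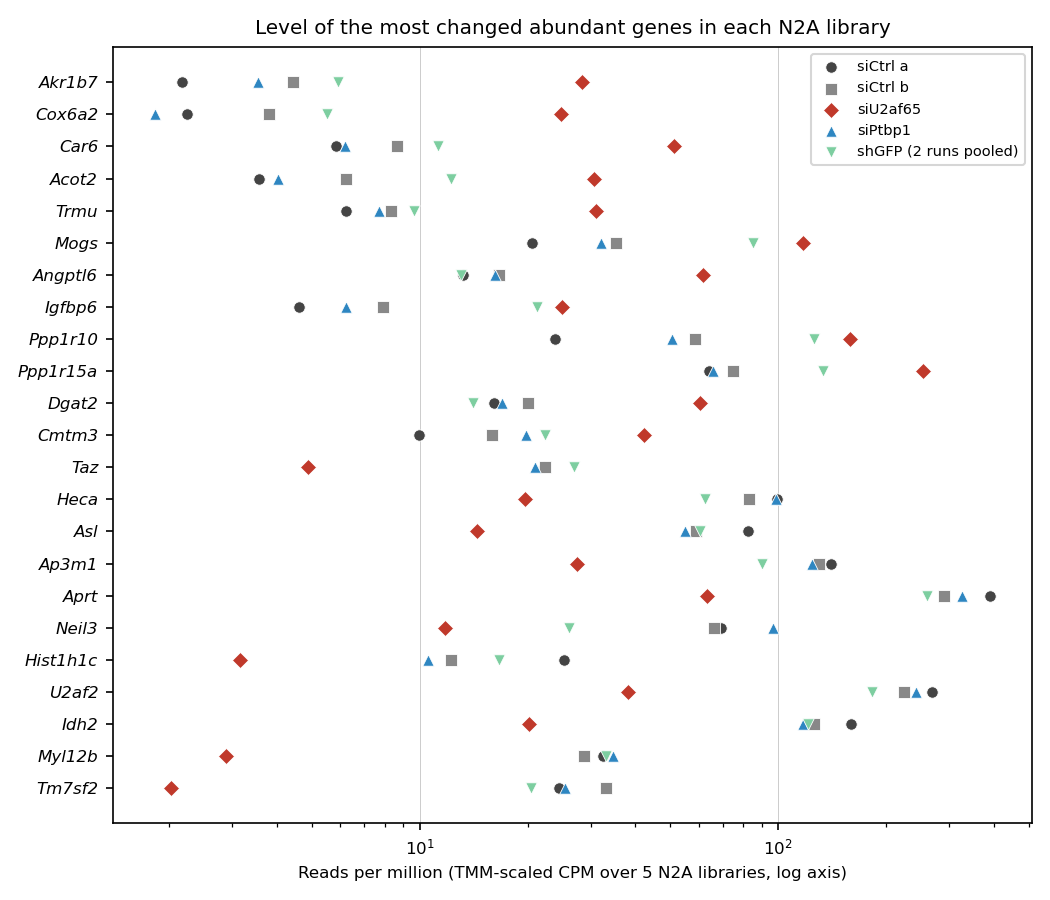
Level of the 12 largest rises and 11 of the 12 largest falls among genes with a mean of 10 RPKM or more, in CPM scaled over 5 N2A libraries (log axis). Each row is 1 gene and each symbol 1 library. The red diamonds (siU2af65) lie outside the range of the other 4 libraries in every row, and the shGFP file comes nearest to them for genes such as Mogs, Igfbp6 and Ppp1r10.

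Of 26 tested genes of U2AF and 3′ splice site recognition, 0 rose and 1, U2af2 itself, fell, and the list's median log2 fold change was 0.04 (-0.04 with no filter on low genes), beside -0.00 for all genes tested. The calls depended on the scaling: with library totals 3 members rose and 2 fell, and with DESeq2 size factors 0 rose and 2 fell. U2af1, the small subunit, stood at 114, 112 and 119 CPM (log2 fold change 0.07, SE 0.21), and its paralog U2af1l4 at 17.6, 18.2 and 14.8 CPM. Sf1, the branch point protein that U2AF contacts first, stood at 445, 325 and 583 CPM (log2 fold change 0.60, edgeR adjusted p = 0.248). The U2AF-like factors Puf60 and Rbm39 had log2 fold changes of -0.04 and 0.09.

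Genes of the U2 snRNP were not called with TMM scaling. Sf3b1 stood at 907, 495 and 465 CPM, so the knockdown value was close to that of siCtrl b. Snrpa1, a protein of the U2 snRNP, stood at 112, 100 and 56.9 CPM and missed the threshold (log2 fold change -0.90, edgeR adjusted p = 0.0514). No member was called among 12 tested genes of the U1 snRNP, 14 of the Sm and LSm rings, 30 of the tri-snRNP and catalytic core, 19 of the exon junction complex and nonsense-mediated decay, and 20 of cleavage and polyadenylation. With library totals 1 rose in the U1 snRNP list, 1 in the tri-snRNP list and 2 in the decay list. Their median log2 fold changes ran from -0.16 (U1 snRNP) to 0.06 (tri-snRNP). The Sm and LSm median of -0.04 was 0.07 with library totals, and the decay and cleavage medians of 0.01 and 0.04 became -0.04 and -0.02 with no filter.

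Calls among SR protein genes and their kinases (4.55%) and hnRNP genes (6.9%) came near the 5.15% of all genes tested. Of 22 SR protein genes and their kinases, 1 rose: Srsf6, at 188, 176 and 351 CPM (log2 fold change 0.95, SE 0.22, edgeR adjusted p = 0.0448). Of 29 hnRNP genes, 2 fell. Hnrnpd, which binds AU-rich RNA, stood at 250, 200 and 57.3 CPM (log2 fold change -1.98), and Hnrnph3 at 82.3, 80.8 and 37.2 CPM (log2 fold change -1.13). The hnRNP list's median was -0.26.

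Among 15 neuronal splicing regulators, 0 rose and 2 fell (13.3% called, beside 5.15% of all genes), with a median of -0.40. These were Celf6 (34.0, 29.7 and 13.4 CPM) and Mbnl1 (106, 130 and 58.6 CPM, no longer called among genes with at least 5 RPKM, edgeR adjusted p = 0.0543). Srrm4, which encodes nSR100, stood at 36.1, 61.2 and 85.4 CPM and was not called (log2 fold change 0.81, edgeR adjusted p = 0.138). Ptbp1 (log2 fold change -0.28) and Ptbp2 (-0.20) were not called. Of 17 mRNA export genes 1 fell (5.88% called), Thoc2 of the THO complex, from 213 and 166 to 92.2 CPM. Its call was lost at 5 RPKM or more (edgeR adjusted p = 0.0539). Ddx39, the paralog of the U2AF-associated helicase Ddx39b, was outside these counts and fell from 105 and 106 to 37.1 CPM, while Ddx39b was at 321, 275 and 448 CPM with no call.

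Genes of mitosis gave the most falls of any group of lists described here by number. Of 118 tested genes in 4 lists (kinases and cyclins, kinetochore, spindle motors and cytokinesis, condensin and topoisomerase II), 41 fell (34.7%, beside the background of 3.26%) and 0 rose, 108 had a negative log2 fold change, and the median was -0.76. In mitosis, cyclin-dependent kinase drives entry, kinetochores tie chromosomes to the spindle, motors shape the spindle, and condensin compacts the chromosomes. Ccna2 (cyclin A2) stood at 200, 164 and 53.8 CPM, Aurka at 108, 85.8 and 32.8 CPM, and Cdc25c, the phosphatase that releases the mitotic kinase, at 22.6, 24.4 and 6.08 CPM. Each knockdown value was less than 0.5 of the lower control. These changes were -1.76, -1.56 and -1.95 on the log2 scale.

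A short promoter sequence is known from such genes. The cell cycle genes homology region, with the letters TTTGAA, is where the DREAM and MuvB complexes attach, often near a CCAAT box. It was looked for on both strands in RefSeq promoter windows of 300 bases (250 before to 50 after the start, GRCm38.p6), and 34 of the 41 mitosis genes that fell had a window. TTTGAA was found in 28 of their 37 windows (75.7%) and in 59 of 108 windows (54.6%) of the mitosis genes tested. It was in 5878 of 32851 windows (17.9%) of all promoters, 11.6% for all genes tested and 19.4% for all that fell. CCAAT was found in 83.8% and 67.6% of the windows of the mitosis genes that fell and of those tested. It was in 37.4% of all promoters, 38.3% for all genes tested and 49.6% for all that fell. All that fell include these mitosis genes, which hold 28 of the 69 windows with TTTGAA and 31 of the 176 with CCAAT. Overlaps between the motifs were not removed. A match in these letters is a description, not a binding site. The 30 bases around the match nearest the start are shown for 6 genes of different mitotic roles, 5′ to 3′ along the gene's strand, with TTTGAA in capitals.
Ccnb2 (cyclin B2), chr9:70421533-70421562, minus strand: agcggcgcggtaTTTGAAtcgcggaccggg
Cdc20 (activator of the anaphase ligase), chr4:118437344-118437373, minus strand: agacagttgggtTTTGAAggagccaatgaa
Cenpa (centromeric histone), chr5:30666890-30666919, plus strand: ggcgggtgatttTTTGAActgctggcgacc
Cenpf (kinetochore protein), chr1:189688067-189688096, minus strand: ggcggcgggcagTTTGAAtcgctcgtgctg
Aspm (spindle pole protein), chr1:139454767-139454796, plus strand: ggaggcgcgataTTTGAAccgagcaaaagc
Kif23 (cytokinesis motor), chr9:61946780-61946809, minus strand: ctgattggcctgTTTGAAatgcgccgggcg
All 6 genes fell. Ccnb2 stood at 89.6, 74.8 and 32.7 CPM, Cenpf at 789, 666 and 261 CPM, and Aspm at 173, 192 and 65.9 CPM. Kif23 stood at 106, 104 and 40.0 CPM, Cenpa at 77.8, 61.4 and 32.6 CPM, and Cdc20 at 64.0, 55.4 and 30.7 CPM. Their log2 fold changes ran from -1.48 (Cenpf) to -0.96 (Cdc20).

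The mitosis lists differed in how many members passed. Of 31 spindle motor and cytokinesis genes 17 fell and all 31 had a negative log2 fold change (median -1.04). Of 28 kinases, cyclins and their regulators 13 fell (median -0.94), of 39 kinetochore genes 7 (median -0.56), and of 20 condensin, cohesin and topoisomerase genes 4 (median -0.80). The largest fall was that of Psrc1, a microtubule-binding protein, at 17.3, 15.2 and 2.65 CPM. Nusap1, which bundles spindle microtubules (83.1, 84.6 and 27.5 CPM), and the condensin subunit Ncaph (120, 102 and 38.3 CPM) fell with closely matched controls. The abundant proliferation genes Top2a (log2 fold change -1.50, edgeR adjusted p = 0.0519) and Mki67 (-1.27, adjusted p = 0.0562) missed the threshold, as did Cdk1 (-0.91) and Ccnb1 (-0.75).

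The outside libraries gave unlike pictures of these genes. All 41 mitosis genes that fell were lower in siU2af65 than in siPtbp1 by level, beside 5578 of all 11271 genes tested. In edgeR, 36 of the 118 mitosis genes tested were called lower in that comparison, beside 2.4% of all genes. The comparison shares the siU2af65 library with the calls. Against the pooled shGFP file, only 19 of the 41 were lower in siU2af65, and 33 of the 118 tested, beside 5513 of all 11271 genes. With CPM scaled over all 5 libraries, Cenpf was at 133 in shGFP and 264 in siU2af65, and Mki67 at 255 and 426. These shGFP cells carried a stable hairpin and puromycin selection, and whether the treatment or another difference sets their low mitotic RNA cannot be told apart.

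**Figure D4:**
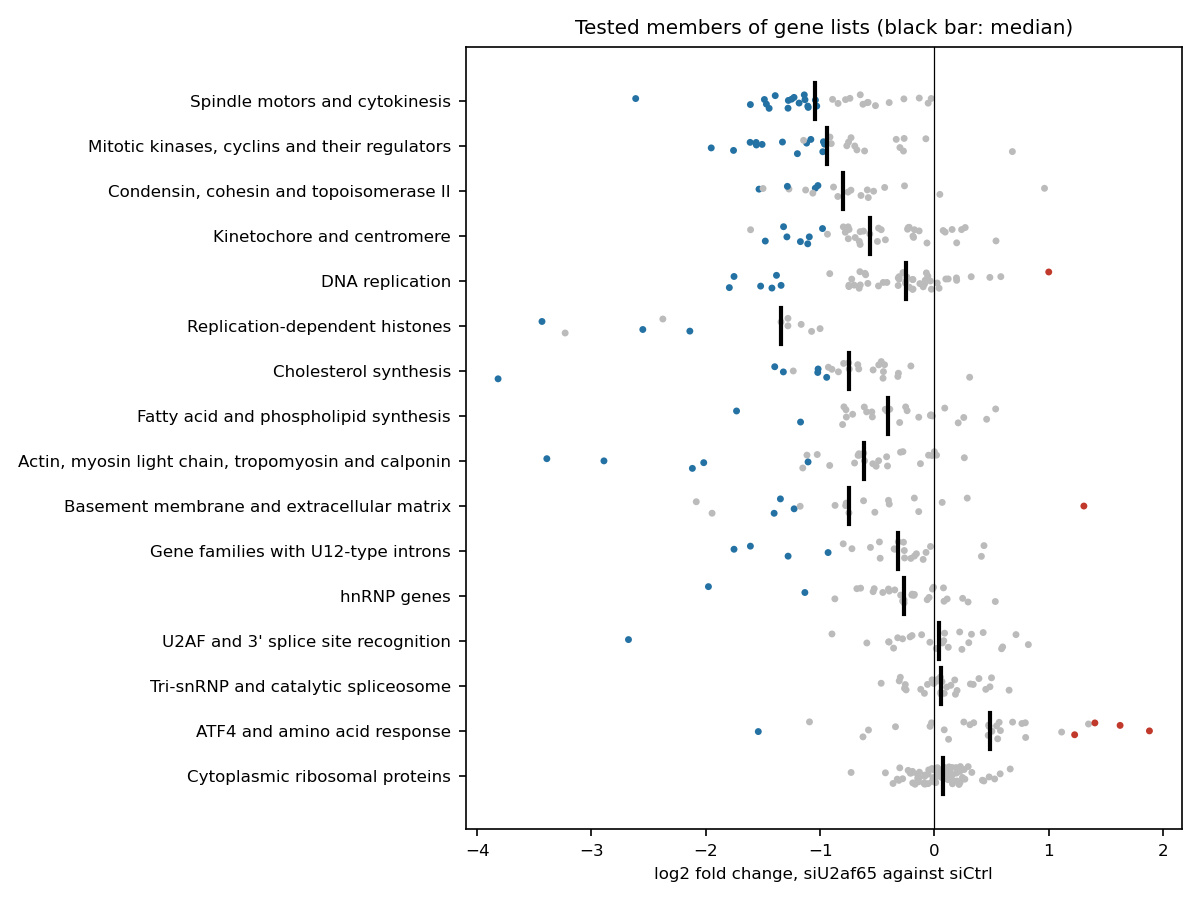
Log2 fold change of siU2af65 against siCtrl (horizontal axis) for the tested members of 16 gene lists. Each point is 1 gene (red rose, blue fell, grey not called) and the black bar is the list's median. The mitosis lists lie to the left with medians of -1.04 to -0.56, and the ATF4 list to the right at 0.49.

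DNA replication genes fell as a subset. Of 52 tested, 6 fell and 1 rose (13.5% called, beside 5.15% of all genes, median -0.25). The 6 included Tk1, thymidine kinase (65.2, 68.6 and 19.3 CPM), and Rrm2, a ribonucleotide reductase subunit (87.2, 97.1 and 32.1 CPM). Ccne1, cyclin E1 (43.5, 41.8 and 16.8 CPM), and Cdc45, part of the replicative helicase (43.7, 44.7 and 17.0 CPM), fell too. The others were the E2F factors E2f2 (42.2, 57.3 and 14.8 CPM) and E2f8 (78.3, 74.5 and 28.5 CPM). The knockdown value lay below both controls in each of the 6, which the call rule requires. Tyms, thymidylate synthase, rose from 28.2 and 33.5 to 61.8 CPM (log2 fold change 1.00). In the comparison with siPtbp1, 16 of the 52 were called lower in siU2af65, beside 2.4% of all genes, and the list's median was -0.92. The siPtbp1 library lay above both controls for the 6 genes that fell, with Rrm2 at 169 CPM, Ccne1 at 81.4 and Cdc45 at 74.9.

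Of 36 DNA repair genes 2 fell (5.56% called, beside 5.15% of all genes), with a list median of -0.22. These were Neil3 and the helicase Pif1 (24.0, 22.6 and 4.4 CPM). Replication-dependent histone genes, whose mRNAs mostly lack a poly(A) tail and are thus thinly sampled in polyadenylated RNA, had 11 tested members. Of these, 3 fell (27.3% called). All 11 had a negative log2 fold change, beside 5684 of all 11271 genes, and the median was -1.34. That median was -1.73 against siCtrl a and -0.98 against siCtrl b, with -0.54 for siCtrl b minus siCtrl a. Besides Hist1h1c the genes that fell were Hist1h1b (2.31, 1.06 and 0.154 CPM) and Hist1h2bc (5.22, 4.39 and 1.09 CPM). The controls of Hist1h1c and of Hist1h1b were more than 2-fold apart, and Hist1h1b had 11 reads in siU2af65.

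Of 25 tested genes of cholesterol synthesis and uptake, 24 had a negative log2 fold change, 6 fell and 0 rose (median -0.74). The share called was 24%, beside 5.15% of all genes tested, and 5684 of all 11271 genes had a negative value. Beside Tm7sf2, the falls included Lbr, a lamin B receptor with sterol reductase activity (169, 170 and 64.4 CPM, log2 fold change -1.40), Pmvk (110, 124 and 46.7 CPM), Mvd (149, 177 and 80.6 CPM) and Idi1 (168, 162 and 85.9 CPM) of the mevalonate pathway. In each of these the knockdown value lay below both controls, which the call rule requires.

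Fatty acid and phospholipid synthesis had 26 tested genes, of which 2 fell: Acss2, which makes acetyl-CoA from acetate (119, 159 and 41.8 CPM), and the elongase Elovl5 (262, 242 and 112 CPM). The share called was 7.69%, beside 5.15% of all genes tested, and the list's median was -0.40. Fasn, the fatty acid synthase, was at 535, 788 and 602 CPM, between the controls. In the TCA cycle list, 3 of 25 fell (12% called), with a median of -0.24. These were Idh2, Idh3g (157, 149 and 73.7 CPM) and the succinate dehydrogenase subunit Sdhc (117, 114 and 59.1 CPM).

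Of 27 glycolysis and hypoxia genes none was called, and the list's median of -0.25 turned positive in limma (0.03) and when shGFP was added (0.05). Here the controls themselves were far apart. The median difference between siCtrl b and siCtrl a was -1.40, and the list's median was -0.75 against siCtrl a and 0.57 against siCtrl b. Pgk1, a glycolytic kinase, showed it at 3332, 1175 and 1462 CPM.

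ATF4 is a transcription factor of the stress response, made when eIF2 alpha is phosphorylated. Of the 30 tested members of its list, which also holds amino acid genes, 4 rose (13.3%, beside 1.89% of all genes), 1 fell and the others were not called, with a median of 0.49. With library totals 12 rose and 2 fell. The controls differed from each other by as much, with a median of 0.47 for siCtrl b minus siCtrl a, and the list's median was 0.58 against siCtrl a and 0.39 against siCtrl b. Ppp1r15a, whose product GADD34 reverses the phosphorylation, went from 62.0 and 73.8 to 250 CPM (log2 fold change 1.88, SE 0.21, edgeR adjusted p = 0.0066). Trib3, a pseudokinase, stood at 127, 183 and 477 CPM (log2 fold change 1.62), Stc2, a secreted glycoprotein, at 32.7, 58.0 and 120 CPM (1.40), and Nupr1, a small chromatin protein, at 42.9, 68.7 and 131 CPM (1.23). The siU2af65 level of each was above both controls, which the call rule requires. The calls of Stc2 and Nupr1 were lost with a robust edgeR fit (adjusted p = 0.0563 and 0.0505), and that of Nupr1 also at 5 RPKM or more (adjusted p = 0.0508).

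The enzymes of amino acid synthesis in the list differed. Cbs, cystathionine beta-synthase of cysteine synthesis, fell from 31.9 and 30.1 to 10.7 CPM (log2 fold change -1.54). Asns, asparagine synthetase, had a log2 fold change of -0.04. Psph and Gpt2, of serine and alanine synthesis, had 0.80 each and Aldh18a1, of proline synthesis, 0.68, with no call under TMM. Atf4 itself had 0.50 with no call (805, 722 and 1080 CPM). The C/EBP-ATF response element, searched as TGATGNAAT on both strands, was in 2 of 33 windows (6.06%) of the 28 listed genes that had one. It was in 0.965% of all promoter windows and in 0.41% of those of all genes tested. Both matches in the list are shown, 5′ to 3′ along the gene's strand, with the element in capitals. In Nupr1 it reads on the opposite strand.
Nupr1, chr7:126625562-126625591, minus strand: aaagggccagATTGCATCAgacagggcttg
Pycr1, chr11:120643832-120643861, minus strand: gccctgtgtaTGATGCAATgcacaaggctc
Of this pair Nupr1 rose, while Pycr1, a proline synthesis enzyme, was at 40.7, 59.2 and 54.4 CPM, within the controls.

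In the other stress lists the share called ran from 0% (heat shock and proteasome) to 9.52% (aminoacyl-tRNA synthetases), beside 5.15% of all genes tested. It was 8.7% for the endoplasmic reticulum list, 5.56% for the interferon list and 5% for p53 targets. Of 23 genes of endoplasmic reticulum chaperones and the unfolded protein response 2 fell, Sdf2l1 (61.0, 77.6 and 27.3 CPM) and the disulfide isomerase Pdia4 (260, 291 and 120 CPM), and the median was -0.42. None of 13 heat shock genes and none of 31 proteasome subunits was called. The proteasome median was -0.09 (0.01 with library totals). Of 21 aminoacyl-tRNA synthetases 2 fell, Dars (223, 172 and 88.1 CPM) and Qars (128, 117 and 57.8 CPM), while the list's median was 0.22. Of 20 p53 targets 1 fell, Ei24 (33.4, 36.1 and 10.9 CPM), and the list's median of -0.04 was 0.06 with library totals. Among 18 interferon-induced genes Mx2 rose (11.1, 9.42 and 25.6 CPM), a call lost in the fit with siPtbp1 (edgeR adjusted p = 0.0529), and the median of 0.25 was -0.17 with shGFP added.

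Of 29 tested genes of actin, myosin light chain, tropomyosin and calponin 5 fell and 0 rose. That is 17.2% called, beside 5.15% of all genes tested, with a median of -0.62. The median was -0.79 against siCtrl a and -0.40 against siCtrl b, with -0.37 for siCtrl b minus siCtrl a. Beside Myl12b the falls included Cnn2, a calponin (237, 135 and 45.9 CPM, log2 fold change -2.02), and Myl9 (5.07, 2.42 and 0.503 CPM). Tpm3 (9.29, 7.81 and 1.97 CPM), whose reads may be shared with a near copy, fell too. Against siPtbp1, Cnn2 differed by -0.10 on the log2 scale and was not called (edgeR adjusted p = 0.91).

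In the basement membrane and matrix list of 19, 3 fell and 1 rose (21.1% called, beside 5.15% of all genes), with a median of -0.75. The laminin chain Lamc1 (373, 431 and 152 CPM), the proteoglycan Hspg2 (248, 285 and 105 CPM) and Sparc (55.0, 83.2 and 29.5 CPM) fell. Col4a1, a chain of collagen IV, rose from 219 and 254 to 586 CPM (log2 fold change 1.31, SE 0.25, edgeR adjusted p = 0.0251). Col4a2, which lies head to head with it and shares its promoter, was at 247, 405 and 398 CPM and was not called. The Sparc call was lost at 5 RPKM or more (adjusted p = 0.056) and with a robust fit (adjusted p = 0.0503). Of 6 S100 genes 2 fell (33.3% called): S100a6 (195, 126 and 64.1 CPM) and S100a1 (4.49, 4.21 and 0.684 CPM).

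In the neuronal lists the share called ran from 4.55% (synaptic vesicle) to 27.3% (postsynaptic scaffold), beside 5.15% of all genes. Of 28 tubulin and neuronal cytoskeleton genes, Nefh, the heavy neurofilament chain, rose (53, 61.6 and 120 CPM) and Marcks, an actin regulator at the membrane, fell (182, 163 and 77.8 CPM). Of 22 synaptic vesicle genes 1 fell, Sv2c (213, 252 and 111 CPM). Of 11 postsynaptic scaffold genes 3 fell: Dlg4, which makes PSD-95 (304, 221 and 119 CPM), Dlg3 (27.8, 18.1 and 7.44 CPM) and Nlgn2 (58.1, 52.7 and 27.3 CPM). Of 21 voltage-gated channel genes 3 fell: the sodium channels Scn3a (51.4, 49.2 and 16.5 CPM) and Scn9a (93.8, 104 and 51.9 CPM) and the auxiliary subunit Scn3b (53.1, 52.6 and 24.9 CPM). The calls of Dlg3, Nlgn2, Scn3b and Scn9a were lost in limma on log2(RPKM + 1) (adjusted p = 0.0621, 0.103, 0.0692 and 0.149), and those of Dlg4 and Scn9a at 5 RPKM or more (0.056 each, edgeR).

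Transcription factors of the sympathetic neuroblast went both ways. Of 27 genes of this list, which also holds transmitter synthesis, 2 rose and 2 fell (14.8% called, beside 5.15% of all genes). The median of 0.04 was -0.23 with shGFP added. Isl1, a homeobox factor, stood at 51.6, 37.4 and 13.7 CPM (log2 fold change -1.70), and Tfap2b at 9.28, 9.19 and 1.96 CPM (-2.24). Ddc, the decarboxylase that makes dopamine, rose from 7.0 and 5.51 to 18.4 CPM (1.56), and Tbx2 from 18.0 and 16.9 to 38.4 CPM (1.14). The calls of Ddc and Tbx2 were lost in the fit with siPtbp1 (edgeR adjusted p = 0.0522 and 0.0509), and that of Tfap2b in limma on log2(RPKM + 1) (adjusted p = 0.174). Of 9 Notch and proneural genes Notch2 fell (72.5, 95.0 and 36 CPM), a call lost in limma (adjusted p = 0.0854), and the list's median of -0.15 was 0.01 in limma.

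Of 23 immediate early genes, which respond within minutes to growth signals, 4 fell and 0 rose (median -0.68). That is 17.4% called, beside 5.15% of all genes tested. Egr1 stood at 417, 178 and 77.6 CPM, with controls more than 2-fold apart, and lost its call with a robust edgeR fit (adjusted p = 0.157). Arc stood at 38.6, 28.3 and 13.6 CPM, Klf10 at 123, 101 and 54.4 CPM, and Srf, the factor that drives many of them, at 47.2, 46.8 and 22.6 CPM. The calls of Arc (at 5 RPKM or more, edgeR adjusted p = 0.0526) and Srf (in limma, adjusted p = 0.0837) were lost too. Klf10 was the member that kept its call in edgeR, limma and DESeq2, apart from the fit with shGFP. Of 16 genes of ERK feedback 1 rose (6.25% called), the phosphatase gene Dusp26 (1.99, 1.80 and 11.7 CPM).

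Of 23 genes in families that carry U12-type introns, which are recognised without U2AF although the other introns of these genes are not, 4 fell (E2f2, Scn3a, Scn9a and Mapk3), 21 had a negative value and the median was -0.32. That is 17.4% called, beside 5.15% of all 11271 genes tested, of which 5684 had a negative value. Mapk3, the kinase ERK1, stood at 151, 97.2 and 51.1 CPM. Its call was lost at 5 RPKM or more (edgeR adjusted p = 0.0531). By effective length, the share that fell was 1.41% below 1000 bases, 3.06% from 1000 to 2000, 3.77% from 2000 to 4000 and 3.5% above. The share that rose ran from 1.26% to 2.3%.

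The share called in the large housekeeping lists ran from 0% (cytoplasmic ribosomal proteins) to 6.25% (lysosome), beside 5.15% of all genes tested. It was 3.9% for mitochondrial ribosomal proteins and 2.56% for the respiratory chain. Of 79 cytoplasmic ribosomal protein genes 0 were called, with a median of 0.08 (-0.14 against siCtrl a alone). Of 77 mitochondrial ribosomal protein genes 1 rose, Mrps2 (36.2, 49.2 and 112 CPM, log2 fold change 1.40), and 2 fell, Mrpl37 (49.9, 55.9 and 26.7 CPM) and Mrps9 (104, 99.6 and 54.4 CPM), whose calls were lost at 5 RPKM or more (edgeR adjusted p = 0.0515 and 0.056). Of 78 respiratory chain subunits Cox6a2 rose and Sdhc fell. Of 32 lysosome genes 2 fell, the hydrolases Galns (56.4, 68.8 and 22.2 CPM) and Gusb (72.4, 95.7 and 34.6 CPM), with a median of 0.11.

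Some list members passed the filter only through the knockdown library, being under 1 RPKM in both controls, so their counts are no support for a list. Among 5 tested immune cell markers these were Vpreb3 (0.184, 0.306 and 2.61 CPM), Slamf9 (0.586, 1.16 and 7.95 CPM) and Tyrobp (0.151, 0.357 and 1.68 CPM), which rose. The actin regulator Coro1a fell (19.9, 18.1 and 5.82 CPM). The list's median of 2.68 was -0.22 with no filter. Vpreb3 and Slamf9 were put in that list after their rise was known, the Tyrobp call was lost in DESeq2 (adjusted p = 0.156), and the part of immune cells was not tested. The glial (3 tested), fibroblast (2) and endothelial (2) lists held no call, and of 16 N2A markers Nefh rose. Of 14 BCL2 family genes Bcl2l15 rose (0.251, 0.23 and 2.53 CPM), and it too was under 1 RPKM in both controls, as was Dusp26.

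The outside libraries were set beside the calls as a description, since the siU2af65 library that made the calls enters again. Of the 213 genes that rose, siU2af65 lay above siPtbp1 in 213 and above shGFP in 200, beside 5690 and 5758 of all 11271 genes. Of the 367 that fell, it lay below siPtbp1 in 364 and below shGFP in 333, beside 5578 and 5513 of all genes. Tested directly, siU2af65 was higher than siPtbp1 at 115 genes and lower at 271 (3.42% of genes called, 1.02% higher and 2.4% lower, edgeR). This comparison reuses the siU2af65 library. The labels give siU2af65 and siCtrl a the letter a, and siPtbp1 and siCtrl b the letter b, with no meaning stated, and the knockdown and the letter cannot be told apart between siU2af65 and siPtbp1. When the shGFP file was added to the controls, 0 genes were called in edgeR, with 1159 at an unadjusted p under 0.05.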

How the data were processed

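RNA-seq of N2A cells was analysed for 2 siCtrl libraries and 1 siU2af65 library, with 1 siPtbp1 library and 1 pooled shGFP file as references. The deposited files give a read count and an RPKM value per Ensembl gene, which the authors computed, with no header. RPKM equalled the count over a fixed length per gene (effective length) and the file's total. Genes without RPKM numbered 1114. Per the submitters' processing notes, Bowtie and bedtools 2.17.0 and the builds mm9 and hg19 were used, with roles unnamed. How reads were counted, and whether by strand, is not given in the sources used here, so overlapping genes and close copies (Tpm3, Rpl3, Gapdh) are uncertain. Columns of values left without a sample numbered 0.

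Symbols were matched to 20759 of 22667 identifiers. Counts of the genes that averaged 1 RPKM or more were tested with edgeR 4.0.16 (quasi-likelihood, TMM, R 4.3.3), with Benjamini-Hochberg adjustment over all 11271 genes and a threshold of 0.05. The common dispersion was 0.0379, with 8.27 prior degrees of freedom. SE is the log2 fold change over the square root of F. Alternatives used DESeq2 1.42.0, limma 3.58.1 on log2(RPKM + 1) and log2(RPKM + 0.1), other scalings, filters and libraries. The scripts were tested on simulated data.

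Genes named were U2af2, the 12 largest rises and falls at 10 RPKM or more, up to 6 changed members of each of 51 lists (otherwise the widest), and the 2 genes nearest the threshold on each side. Further genes (U2AF partners, those with a printed promoter, and near misses) were chosen after their values were seen. The members and lists were chosen with earlier results of these data known. Promoter sequences are from RefSeq. For cholesterol genes 18 of 25 had a window. The sterol element, searched as TCACNCCAC on both strands, was in 0 of their 21 windows. It was in 1.13% of windows of all genes tested, so with few windows and a rare element the 0 says little. Some genes that this rule names are not reported here. A list meant to hold intronless genes also held genes with introns, so it was left out.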

Additional observations from a re-analysis of the deposited data

How the results depend on the processing

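With 1 knockdown library, no alternative replaces a replicate of it. U2af2 kept its direction in all alternatives run: its log2 fold change was -2.78 to -2.56 without siCtrl replicate b or a, and -2.56 with shGFP added, where edgeR no longer called it (adjusted p = 0.383, beside 1.51e-28 to 0.0154 in the other tests). Genes that rose and fell numbered 626 and 562 with library totals, 371 and 683 in DESeq2, 676 and 615 in limma on log2(RPKM + 1), 660 and 619 on log2(RPKM + 0.1), 720 and 950 with no filter beyond 1 read, and 0 and 0 with shGFP added. With DESeq2 size factors in edgeR 373 rose. The cause of these differences was not tested. Of the genes called in the text's fit, 213 that rose and 365 that fell were shared with library totals, and 210 and 367 with DESeq2. For siU2af65 minus siPtbp1, higher and lower genes numbered 443 and 545 with library totals and 277 and 523 in DESeq2, and 76 were higher at 5 RPKM or more. Genes 2-fold or more above the controls, untested, numbered 533, and ranged from 379 to 893 when siCtrl replicate a or b was left out. Those below numbered 577, and 612 to 706. Without the genes whose controls differ by 2-fold or more, an alternative chosen after seeing the data, 202 rose and 361 fell. Of 121 named genes that changed, 25 lost the call in at least 1 test other than the one with shGFP, and 96 kept it in each such test that they entered. The test at 5 RPKM or more did not hold 11 of the 121. No paired analysis was possible because siU2af65 and siPtbp1 have 1 library each, so the groups share fewer than 2 letters.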
